A study of Caenorhabditis elegans with 22 samples.

Results

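A set of 9 genes of fatty acid synthesis and elongation were followed through an ethanol time course in whole Caenorhabditis elegans. They were found by their symbols among the 42048 genes of the count table, and all 9 were among the 15310 genes with enough counts to be tested. The set holds 2 regulators (sbp-1 and mdt-15), 2 enzymes of fatty acid synthesis (pod-2 and fasn-1), 4 fatty acid elongases (elo-1, elo-2, elo-5 and elo-6) and 1 enzyme of triacylglycerol synthesis (dgat-2).

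Polyadenylated RNA was sequenced from whole worms of the laboratory strain N2, taken off their bacterial lawn and held in S-basal buffer. The ethanol groups received 5% ethanol by volume for 1, 4 or 20 h, with 3 libraries at each time. Their controls were held in the same buffer with 0% ethanol for the same times, also with 3 libraries each, and 4 libraries were made at time zero. Both the ethanol and the control worms were therefore without their plate food for the length of the exposure, and a comparison of the controls with time zero covers the move to buffer, the loss of food and the passing time together. The protocols place the worms at the L3 larval stage and the series title at L4, and each library pools many whole animals, so that no tissue was sampled on its own.

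New fatty acids are built from acetyl-CoA: acetyl-CoA carboxylase makes malonyl-CoA, and fatty acid synthase joins these units into palmitate. Elongases of the ELO family then lengthen palmitate, polyunsaturated fatty acids or the monomethyl branched-chain fatty acids that nematodes make from leucine, and the products enter membranes, sphingolipids and stored triacylglycerol. In C. elegans much of this takes place in the intestine, the main fat-storing tissue, under the sterol regulatory element-binding protein SBP-1 and its coactivator, the Mediator subunit MDT-15.

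The 22 libraries held 10908205 to 15302047 counts each. The libraries of a group were spread along a common axis that held 41.4% of the variance within groups, with scores of -58.3 to 41.6. Of the 9 genes, 5 tracked it inversely over the 22 libraries as deviations from the group mean, with Pearson r of -0.98 for fasn-1, -0.97 for mdt-15, -0.92 for sbp-1, -0.80 for pod-2 and -0.64 for dgat-2. The r was 0.95 for elo-1, 0.89 for elo-5, 0.69 for elo-6 and 0.05 for elo-2. The 4 with the strongest inverse relation have 3394 to 8451 annotated exon bases, dgat-2 has 1172 and the elongases have 922 to 1061. The libraries that scored under -10 were replicate 3 of ethanol at 20 h, replicate 2 of ethanol at 1 and 4 h, replicate 1 of the control at 20 h, replicate 2 of the control at 1 h, and replicate 1 of time zero. What sets the axis was not tested. It was computed from all tested genes of these same data, the 9 genes included. Removing libraries by their score therefore tends to narrow the spread of genes that track it. The p-values after such removals are no independent support. Removing the libraries that scored under -10 was added after the data had been seen.

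After ethanol, elo-5 and elo-6 were higher than in the matched controls at all 3 times, elo-2 was higher at 1 and 20 h and lower at 4 h, dgat-2 was higher at 4 and 20 h, elo-1 was higher at 20 h, and sbp-1 was lower at 4 h and, in 10 of 17 alternatives, at 20 h. At 1 h, 3 of the 9 genes rose and 0 fell, where 4.94% of all tested genes rose and 1.72% fell. At 4 h, 3 rose and 2 fell, where 17.1% of all tested genes rose and 13.4% fell. At 20 h, 5 rose and 1 fell, where 25% of all tested genes rose and 28.1% fell. The median log2 fold change of the 9 genes was 0.24, 0.16 and 0.60 at 1, 4 and 20 h, and that of all tested genes was -0.012, 0.0011 and -0.063. Calls rest on a Benjamini-Hochberg adjusted p under 0.05 in edgeR's quasi-likelihood test over all tested genes, and that test gave the adjusted p beside each gene. In whole-worm RNA, fewer cells of a type and less RNA per cell cannot be told apart.

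**Figure D1:**
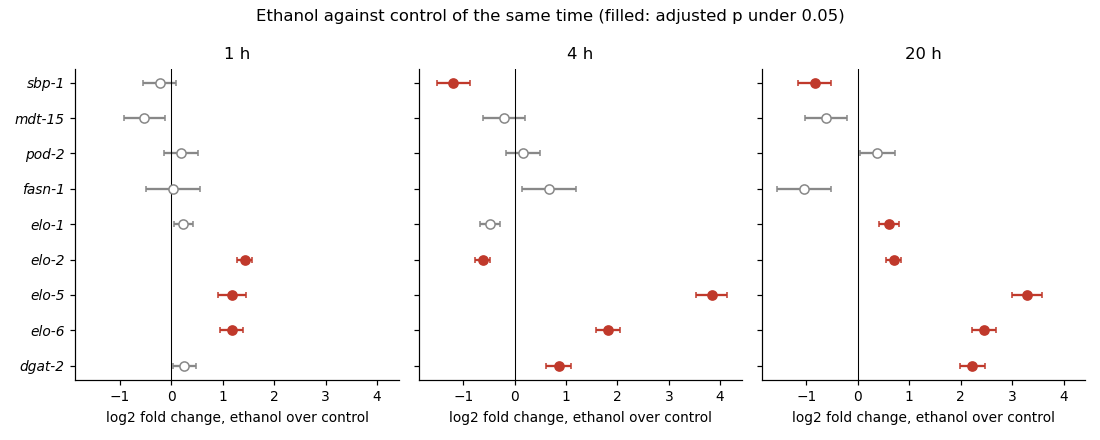
Log2 fold change of each of the 9 genes in ethanol over the matched control at 1, 4 and 20 h, with bars of 1 standard error and marks for adjusted p under 0.05. elo-5 stands at 3.84 and 3.28 at 4 and 20 h, elo-2 lies above zero at 1 and 20 h and below it at 4 h, and sbp-1 and mdt-15 lie below zero at every time.

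All 10 defining markers of the intestine in the list used were detected. Levels are given as CPM, the gene's count scaled to its library's size with TMM factors. The summed level of these markers (lowest, median and highest library) was 3453, 4168 and 5306 CPM in ethanol at 1 h, against 3341, 4725 and 5589 CPM in the 1 h controls. At 4 h the sums were 2019, 2155 and 2271 CPM in ethanol and 3331, 3575 and 3587 CPM in controls, so the groups did not overlap. At 20 h they were 2102, 3076 and 3696 CPM in ethanol and 2915, 2928 and 3673 CPM in controls. Of these 10 markers, 1 rose at 1 h, 2 rose and 6 fell at 4 h, and 3 rose and 5 fell at 20 h. Most of the 4 h sums was asp-1, at 1475 ± 116 CPM in ethanol and 2278 ± 134 CPM in controls. At that time cpr-1 stood at 129 ± 9.59 CPM in ethanol and 601 ± 20.9 CPM in controls. The level of elt-2 was 31.0 ± 2.83 CPM in ethanol and 10.5 ± 2.19 CPM in controls (SD, n = 3 each). Of 10 oocyte and eggshell markers, all detected, 0 changed at 1 and 4 h and 1 rose at 20 h. Their summed level (lowest, median and highest) was 3373, 3802 and 10271 CPM in ethanol at 1 h and 4019, 8897 and 12703 CPM in controls. At 4 h it was 3123, 3275 and 4809 CPM in ethanol and 4048, 4289 and 4482 CPM in controls. At 20 h it was 3461, 3534 and 5532 CPM in ethanol and 3934, 4175 and 6777 CPM in controls. At time zero it was already 3377, 5332 and 9913 CPM, in worms that the protocols place at L3 and the series title at L4. The stage of the worms was not tested. In every group but the 4 h controls, the library with the highest sum was the one that scored under -10 on the axis, which fasn-1, mdt-15, sbp-1 and pod-2 tracked inversely. The sign of the axis had been set so that the oocyte and eggshell markers track it inversely. These markers were also among the genes it was computed from, so this match is no independent result. Of 7 epidermis markers, 0 changed at 1 h, 2 rose and 2 fell at 4 h, and 3 fell at 20 h, when their summed level was 157, 178 and 255 CPM in ethanol and 1088, 1279 and 1423 CPM in controls. Most of that sum was the collagen gene col-19, at 113 ± 53.5 CPM in ethanol and 1066 ± 177 CPM in controls. Its level at time zero was 2063 ± 301 CPM (SD, n = 4). dpy-7 stood at 0.184 ± 0.107 CPM in ethanol and 85.3 ± 23.6 CPM in controls, and at 1.03 ± 0.343 CPM at time zero. elt-3 stood at 22.01 ± 2.86 CPM in ethanol and 22.4 ± 2.18 CPM in controls (SD, n = 3 each at 20 h). The part of these markers in the results for the 9 genes was not tested.

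On a per-length scale (CPM per kilobase of annotated exon), the elongases were the most abundant of the 9 genes before treatment. At time zero elo-6 stood at 779.9 ± 145, elo-1 at 759.8 ± 76.8, elo-5 at 529.7 ± 89.2 and elo-2 at 367 ± 13.8 CPM per kilobase (SD, n = 4). The 2 synthesis enzymes stood far below them, at 73.3 ± 18.2 for pod-2 and 37.0 ± 16.1 for fasn-1. The lowest levels were those of mdt-15 at 24.9 ± 11.1, dgat-2 at 11.98 ± 0.38 and sbp-1 at 10.3 ± 2.40 CPM per kilobase. The genes also differed in how far their group means ranged over the 7 groups. The highest group mean in CPM was 35.1 times the lowest for elo-6, 32.8 times for elo-5 and 18.7 times for elo-2. By the span of mean log2 CPM over the groups, these genes stood at the 96.1, 96.0 and 90.5 percentile of tested genes. The highest mean was 4.67 times the lowest for dgat-2 and 3.53 times for fasn-1, and between 1.54 (mdt-15) and 2.28 times (sbp-1) for the other 4.

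**Figure D2:**
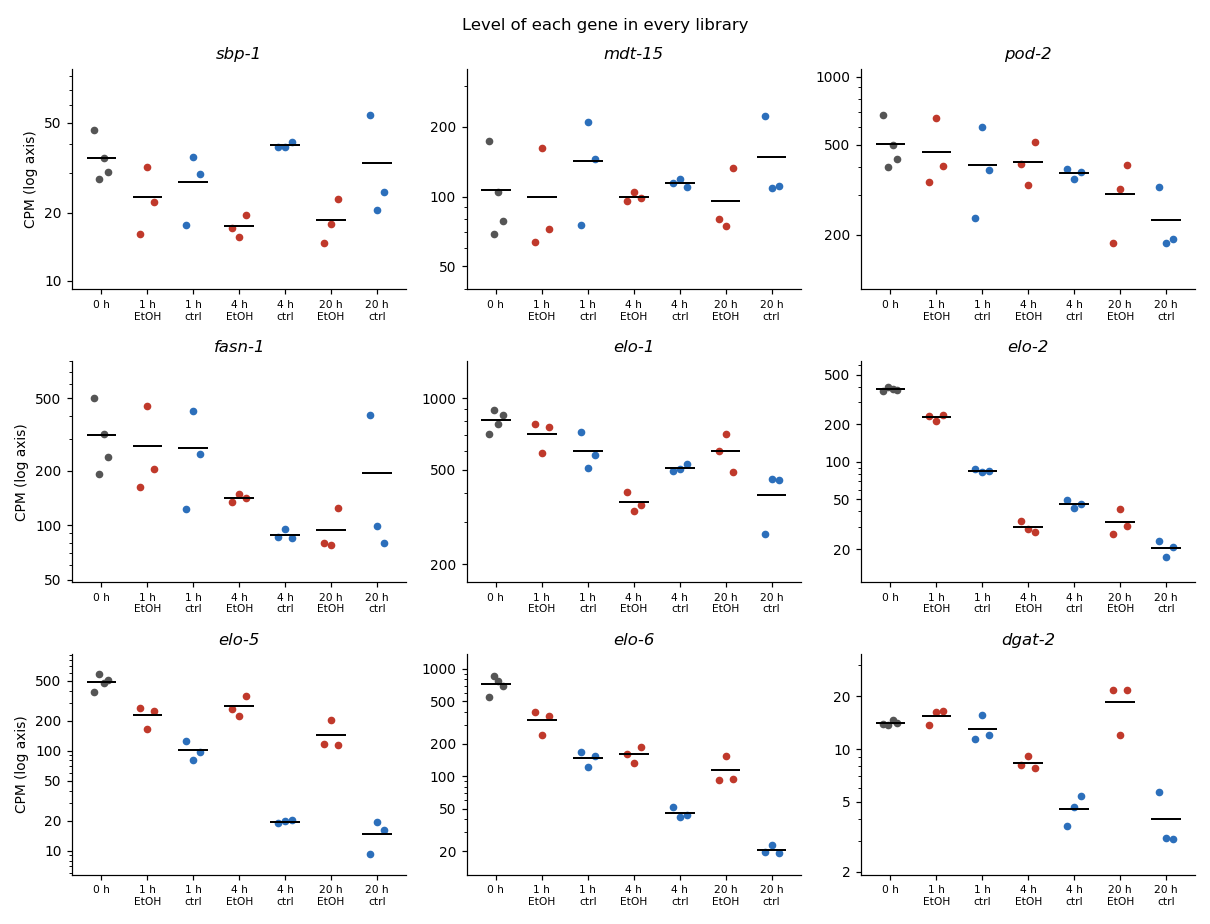
Level of each of the 9 genes in all 22 libraries (CPM, log axis), with groups along the horizontal axis and a bar at each group mean. The elo-2, elo-5 and elo-6 libraries of a group lie close together compared with the distance between groups, while fasn-1, mdt-15 and pod-2 spread widely within the 1 and 20 h groups and at time zero.

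sbp-1 encodes the worm homologue of the sterol regulatory element-binding proteins, transcription factors that switch on genes of fatty acid synthesis. In ethanol at 4 h its level was 17.1, 15.6 and 19.5 CPM, against 38.9, 39.2 and 41.2 CPM in the 4 h controls. Every ethanol library lay below every control library, and the log2 fold change was -1.19 ± 0.32 (SE, adjusted p = 0.00734). At 20 h the ethanol libraries held 14.6, 17.9 and 22.9 CPM, against 54.2, 20.6 and 24.7 CPM in controls. These groups overlapped, with 1 control library above 50 CPM, and the log2 fold change was -0.84 ± 0.32 (adjusted p = 0.0321). Without that library, control replicate 1, it was -0.30 (adjusted p = 0.426), and leaving out ethanol replicate 1 or ethanol replicate 2 gave adjusted p of 0.149 and 0.0798. The call was also lost with limma-voom (0.0584), with no filter (0.0535), with a replicate block (0.0551) and with only these 6 libraries fitted (0.114), so that it failed in 7 of the 17 alternatives. At 1 h sbp-1 stood at 16.1, 31.8 and 22.3 CPM in ethanol and 17.6, 35.2 and 29.5 CPM in controls. The difference was within the spread of the libraries (log2 fold change -0.23 ± 0.32). Ethanol was the lower in each pair of libraries with the same replicate number, and with a replicate block the difference did not pass either.

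mdt-15 encodes a Mediator subunit that acts as a coactivator of SBP-1 and of nuclear hormone receptors. No comparison called it, and its 7 group means stayed within a 1.54-fold range. The ethanol groups averaged 99.3 ± 54.4, 99.4 ± 4.81 and 95.7 ± 31.7 CPM at 1, 4 and 20 h, against 143 ± 67.0, 115 ± 4.21 and 148 ± 65.1 CPM in controls (SD, n = 3 each). The log2 fold changes were -0.53, -0.20 and -0.62, each with a standard error of 0.40. At 1 h ethanol was the lower in each pair of libraries with the same replicate number. Without the libraries scoring under -10 on the axis, the adjusted p at 20 h was 0.0354. When each group's most distant library on the axis was removed, ethanol was lower at 1 h for mdt-15 (log2 fold change -1.38, adjusted p = 1.96e-05), sbp-1 (-0.75, 0.0012) and fasn-1 (-0.88, 0.0151). The libraries then left scored 29.0 and 17.8 in ethanol and -35.4 and -6.2 in controls, and their summed oocyte and eggshell markers were 3373 and 3802 CPM in ethanol and 12703 and 8897 CPM in controls. The part of these markers in the 3 calls was not tested.

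pod-2 encodes acetyl-CoA carboxylase, which makes malonyl-CoA, and fasn-1 encodes fatty acid synthase. Neither passed the test for ethanol against control at any time. pod-2 stood at 411, 332 and 515 CPM in ethanol at 4 h and at 391.7, 352 and 378 CPM in controls, and the groups overlapped at 1 and 20 h as well. Its log2 fold changes were 0.19, 0.16 and 0.38 at 1, 4 and 20 h. fasn-1 at 4 h was 133, 148 and 141 CPM in ethanol, against 86.1, 95.0 and 85.0 CPM in controls. All 3 ethanol libraries were above all 3 controls, yet with the spread shared over the 7 groups the log2 fold change was 0.67 ± 0.53 (adjusted p = 0.399). Fitted on these 6 libraries alone it was 0.70 with adjusted p = 3.96e-05, and without the libraries scoring under -10 the adjusted p was 0.0372. At 20 h fasn-1 held 80.1, 77.6 and 123.8 CPM in ethanol and 404, 99.3 and 79.7 CPM in controls (log2 fold change -1.05 ± 0.53, adjusted p = 0.105). Control replicate 1 alone was above 130 CPM there, and without it the log2 fold change was 0.069. Without control replicate 2 it was -1.36 (adjusted p = 0.0476) and without control replicate 3 it was -1.42 (0.032).

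elo-1 encodes an elongase of polyunsaturated fatty acids. At 4 h it stood at 404, 334 and 355 CPM in ethanol, against 494, 501 and 525 CPM in controls (log2 fold change -0.48 ± 0.19, adjusted p = 0.0645). The groups did not overlap, and the difference passed the threshold when only these 6 libraries were fitted (adjusted p = 0.000424) and without the libraries scoring under -10 (0.0127). At 20 h elo-1 stood at 599.9, 705 and 487 CPM in ethanol and 269, 456 and 453 CPM in controls, again without overlap but with the ethanol libraries above the controls. The log2 fold change was 0.60 ± 0.19 (adjusted p = 0.0109). The call was lost when only these 6 libraries were fitted (adjusted p = 0.0781), when control replicate 1 was left out (0.0673) and when ethanol replicate 2 was (0.0639). The ethanol effect at 20 h was above that at 4 h by 1.08 on the log2 scale (adjusted p of the difference 0.00376).

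elo-2 encodes the elongase that lengthens palmitate. After 1 h its level was 234.5, 212 and 239 CPM in ethanol, against 87.9, 82.5 and 85.1 CPM in controls. The lowest ethanol library was more than 100 CPM above the highest control, and the log2 fold change was 1.42 ± 0.15 (adjusted p = 1.08e-06). After 4 h the order was the opposite, with 33.6, 28.8 and 27.6 CPM in ethanol against 49.1, 42.9 and 46.2 CPM in controls (log2 fold change -0.62 ± 0.15, adjusted p = 0.00267). After 20 h the ethanol libraries were above the controls again, at 26.4, 41.7 and 30.8 CPM against 23.1, 17.4 and 20.7 CPM (log2 fold change 0.69 ± 0.15, adjusted p = 0.000512). The groups were apart at each time. Fitted on the 6 libraries alone, the 20 h difference had an adjusted p of 0.0517. The ethanol effect at 4 h was below that at 1 h by 2.04 on the log2 scale, a difference of -2.04 with adjusted p = 9.28e-07, and the 20 h effect was above that at 4 h by 1.31 (adjusted p = 5.29e-05). All these levels lay below the 369, 401, 381 and 374 CPM of the 4 time zero libraries.

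elo-5 and elo-6 encode elongases needed to make monomethyl branched-chain fatty acids. After 1 h elo-5 stood at 269, 166 and 251 CPM in ethanol, against 125, 80.5 and 97.3 CPM in controls, and elo-6 stood at 398, 242 and 362 CPM in ethanol, against 170.2, 121 and 153 CPM in controls. Ethanol and control libraries were apart for both genes, with log2 fold changes of 1.18 ± 0.27 for elo-5 (adjusted p = 0.00795) and 1.17 ± 0.22 for elo-6 (adjusted p = 0.0015). The elo-5 call at 1 h was lost without control replicate 2 (adjusted p = 0.0828), without ethanol replicate 3 (0.0521) and when only these 6 libraries were fitted (0.056).

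After 4 h the distance widened for elo-5. Its ethanol libraries held 262, 223 and 356 CPM, against 18.9, 19.8 and 20.2 CPM in controls, and the log2 fold change was 3.84 ± 0.30 (adjusted p = 4.22e-09). elo-6 held 163, 133 and 189 CPM in ethanol, against 51.8, 42.2 and 43.6 CPM in controls (log2 fold change 1.82 ± 0.23, adjusted p = 3.09e-06). Neither gene's groups overlapped. After 20 h elo-5 stood at 117, 203 and 115 CPM in ethanol and 9.24, 19.2 and 16.1 CPM in controls (log2 fold change 3.28 ± 0.29, adjusted p = 9.07e-09). elo-6 stood at 92.5, 154 and 93.7 CPM in ethanol and 19.7, 22.7 and 19.4 CPM in controls (log2 fold change 2.46 ± 0.23, adjusted p = 2.25e-08). In both genes the lowest ethanol library was several times the highest control. The calls at 4 and 20 h held under every alternative tried. The annotated exons of elo-5 share 162 bases with the antisense gene F41H10.3, which averaged 78.7 ± 19.2 CPM in ethanol and 51.7 ± 5.80 CPM in controls at 4 h (SD, n = 3 each) and did not pass the test (log2 fold change 0.61, adjusted p = 0.452).

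The 2 genes moved alike at 1 h and apart at 4 h. The elo-5 to elo-6 count ratio in the 3 libraries of a group (lowest, median, highest) was 0.675, 0.686 and 0.692 in ethanol at 1 h, against 0.636, 0.664 and 0.737 in controls. At 4 h it was 1.61, 1.67 and 1.88 in ethanol, against 0.365, 0.463 and 0.468 in controls. At 20 h it was 1.23, 1.27 and 1.31 in ethanol, against 0.469, 0.833 and 0.847 in controls. The 1 h ratios overlapped with each other and with the 0.611 to 0.730 of time zero, whereas at 4 and 20 h all ethanol libraries lay above 1 and all controls below it. The mean log2 ratio in ethanol minus that in controls was 0.015, 2.00 and 0.88 at 1, 4 and 20 h. An exact two-sided permutation test gave p = 0.9, 0.1 and 0.1, where 0.1 is the smallest value that 3 libraries against 3 allow, and 0.9, 0.15 and 0.15 after Benjamini-Hochberg adjustment over the 3 times. Without control replicate 1 the 20 h difference was 0.60. The ratio needs no scaling between libraries, since both counts come from the same library.

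**Figure D3:**
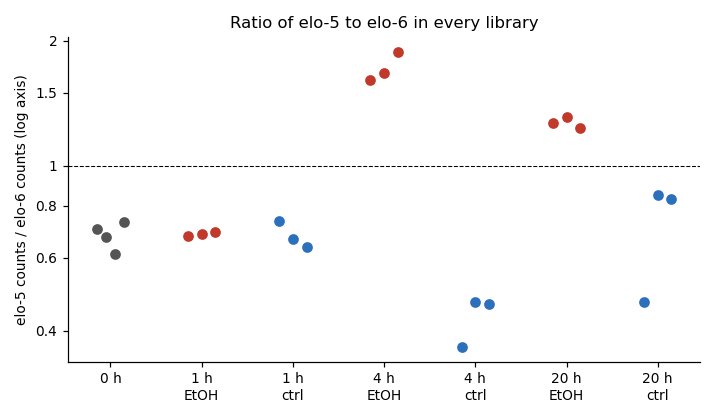
Ratio of elo-5 to elo-6 counts in each of the 22 libraries (log axis), by group. The 6 ethanol libraries at 4 and 20 h lie between 1.23 and 1.88 and every other library lies below 1.

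dgat-2 encodes a diacylglycerol acyltransferase, which makes triacylglycerol. It was the gene of lowest count, with 38 to 379 counts per library. At 1 h it stood at 13.7, 16.3 and 16.4 CPM in ethanol and 11.3, 15.6 and 12.1 CPM in controls, and the groups overlapped (log2 fold change 0.25). At 4 h it stood at 8.14, 9.10 and 7.84 CPM in ethanol, against 3.66, 4.67 and 5.41 CPM in controls (log2 fold change 0.86 ± 0.24, adjusted p = 0.00943). Without control replicate 1 the adjusted p was 0.055. At 20 h it stood at 21.8, 12.04 and 21.8 CPM in ethanol, against 5.73, 3.11 and 3.08 CPM in controls, a log2 fold change of 2.22 ± 0.24 (adjusted p = 1.62e-07). The groups were apart at 4 and 20 h. The effect at 20 h was above that at 1 h by 1.97 and above that at 4 h by 1.36 on the log2 scale (adjusted p = 7.65e-05 and 0.00401).

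Whether the ethanol effect differed between the 3 times was tested as an interaction. It passed for 5 of the 9 genes, where 40.7% of all tested genes passed. The adjusted p was 4.35e-07 for elo-2, 2.32e-05 for elo-5, 0.000206 for dgat-2, 0.0079 for elo-6 and 0.00796 for elo-1. For elo-5 the effect was larger than at 1 h by 2.66 at 4 h and by 2.11 at 20 h on the log2 scale (adjusted p = 6.28e-05 and 0.000179), and for elo-6 it was larger by 1.29 at 20 h (adjusted p = 0.00275). For sbp-1, mdt-15, pod-2 and fasn-1 the adjusted p was 0.172 to 0.914. With each group's most distant library removed it was 0.00151 for mdt-15 and 0.00795 for fasn-1, and without the libraries scoring under -10 it was 0.0241 for sbp-1.

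Against time zero, elo-2, elo-5 and elo-6 were lower at all 3 times in ethanol and in controls, and elo-1 was lower at 4 and 20 h in both. These comparisons share their 4 time zero libraries, and the controls also serve the ethanol comparisons, so the values are given side by side without a measure of their likeness. In controls 3, 6 and 6 of the 9 genes fell at 1, 4 and 20 h and 0 rose, where 5.49%, 23.3% and 24.4% of all tested genes fell. In ethanol 3, 6 and 6 fell and 0 rose, where 3.47%, 19.5% and 26.6% of all tested genes fell. The 3 that fell at 1 h were elo-2, elo-5 and elo-6 in both.

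elo-5 was at 46.8%, 57.4% and 29.7% of its time zero mean after 1, 4 and 20 h in ethanol, and at 20.7%, 4.02% and 3.04% in controls. Its log2 fold changes over time zero were -1.09, -0.80 and -1.75 in ethanol and -2.27, -4.64 and -5.04 in controls. elo-6 was at 46.3%, 22.4% and 15.7% in ethanol and at 20.5%, 6.35% and 2.85% in controls. Its log2 fold changes were -1.11, -2.16 and -2.67 in ethanol and -2.28, -3.98 and -5.13 in controls. All 12 of these differences from time zero passed the test, and in ethanol elo-5 at 4 h had the largest adjusted p of them (0.0159), which was 0.0621 without ethanol replicate 1, 0.0801 without ethanol replicate 2 and 0.0679 with library sizes alone. The elo-5 difference in ethanol at 1 h had an adjusted p of 0.0579 without ethanol replicate 2.

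elo-2 was at 60.0%, 7.87% and 8.65% of its time zero mean in ethanol and at 22.4%, 12.1% and 5.35% in controls, so at 4 h it was lower in ethanol than in controls and at 1 and 20 h higher. Its log2 fold changes over time zero were -0.74, -3.67 and -3.53 in ethanol and -2.16, -3.05 and -4.22 in controls. In the order of its 7 group means, each neighbouring pair was apart except ethanol at 20 h and ethanol at 4 h. dgat-2 was at 110%, 59.5% and 132% in ethanol and at 92.7%, 32.6% and 28.3% in controls. It fell in ethanol at 4 h (log2 fold change -0.75, adjusted p = 0.0104) and in controls at 4 and 20 h (-1.61 and -1.82). The 4 highest groups, ethanol at 20 h, ethanol at 1 h, time zero and the control at 1 h, overlapped in that order.

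**Figure D4:**
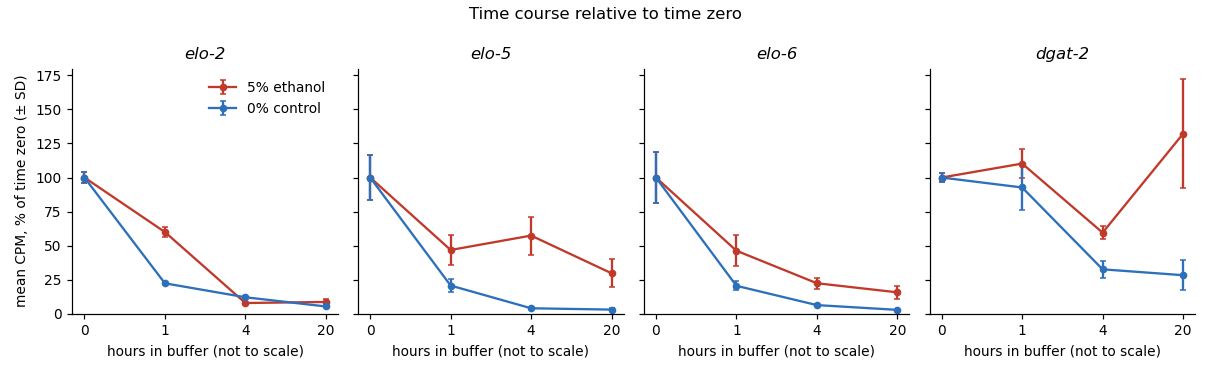
Group means of elo-2, elo-5, elo-6 and dgat-2 as a percentage of each gene's time zero mean (linear axis), with bars of 1 SD. Lines for ethanol and for controls run over 0, 1, 4 and 20 h. The elo-5 lines reach 29.7% in ethanol and 3.04% in controls at 20 h, the elo-2 lines cross between 1 and 4 h and again by 20 h, and dgat-2 ends at 132% in ethanol and 28.3% in controls.

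Of the other genes, elo-1 fell in ethanol at 4 h (log2 fold change -1.15) and 20 h (-0.43, adjusted p = 0.0477) and in controls at 4 h (-0.67) and 20 h (-1.04). The fall in ethanol at 20 h was lost in 11 of the 18 alternatives tried. fasn-1 fell in ethanol at 20 h (-1.74, adjusted p = 0.0084) and in controls at 4 h (-1.82, adjusted p = 0.00756). In the 20 h controls fasn-1 had a log2 fold change of -0.69 over time zero, and without control replicate 1 it was -1.80 (adjusted p = 0.00294). sbp-1 fell in ethanol at 4 and 20 h (-1.0004 and -0.91, adjusted p = 0.0135 and 0.0161) and passed in no control comparison. Those calls were lost without ethanol replicate 2 at 4 h (adjusted p = 0.0515) and without ethanol replicate 1 at 20 h (0.0688). pod-2 fell in controls at 20 h (-1.11, adjusted p = 0.00609), and its ethanol value at that time was -0.73, which passed in 8 of 18 alternatives, among them DESeq2 (adjusted p = 0.0327) and the compared groups alone (0.0401). For sbp-1, pod-2 and fasn-1, a call in ethanol or in controls alone does not show that they differ, and the tests of ethanol against control are those given above.

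Around these 9 genes, 47 further genes of fatty acid metabolism were set in 6 lists, of which 43 were tested. In ethanol against control at 1 h, 5 of the 43 rose and 1 fell. At 4 h 7 rose and 8 fell, and at 20 h 13 rose and 9 fell. Of all tested genes 4.94%, 17.1% and 25% rose and 1.72%, 13.4% and 28.1% fell in these comparisons. The median log2 fold change of the 43 was -0.01, 0.00 and 0.19 at the 3 times. Against time zero, 1, 4 and 7 rose and 4, 17 and 17 fell in ethanol, and 3, 8 and 8 rose and 9, 17 and 22 fell in controls. Against time zero, 7.13%, 19.7% and 26.5% of all tested genes rose and 3.47%, 19.5% and 26.6% fell in ethanol. In controls against time zero, 5.33%, 22.9% and 30.8% rose and 5.49%, 23.3% and 24.4% fell.

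By list, the counts for ethanol against control stand beside the same shares of all tested genes. The 8 other enzymes of fatty acyl elongation had 1 that rose and 0 that fell at 1 h, 2 and 1 at 4 h, and 3 and 2 at 20 h. Against time zero, 1, 8 and 7 of these 8 fell in ethanol and 3, 8 and 7 in controls at 1, 4 and 20 h, and none rose. Their median log2 fold change over time zero was -0.43, -1.03 and -1.17 in ethanol and -0.37, -1.53 and -1.24 in controls. The 4 tested genes of branched-chain fatty acid supply and use, which include subunits of the serine palmitoyltransferase that starts sphingolipid synthesis, had 3 that rose at 1 h, 2 at 4 h and 2 at 20 h, with 0 that fell. Of the 4 tested genes of acetyl-CoA and malonyl-CoA supply, 0, 1 and 2 rose and 0 fell. The 7 desaturases had 1 that rose and 0 that fell at 1 h, 1 and 1 at 4 h, and 2 and 2 at 20 h. The 9 tested genes of glycerolipid acylation and storage had 0 that rose and 1 that fell at 1 h, 0 and 3 at 4 h, and 1 and 1 at 20 h. The 11 regulators had 0 changed at 1 h, 1 that rose and 3 that fell at 4 h, and 3 and 4 at 20 h.

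**Figure D5:**
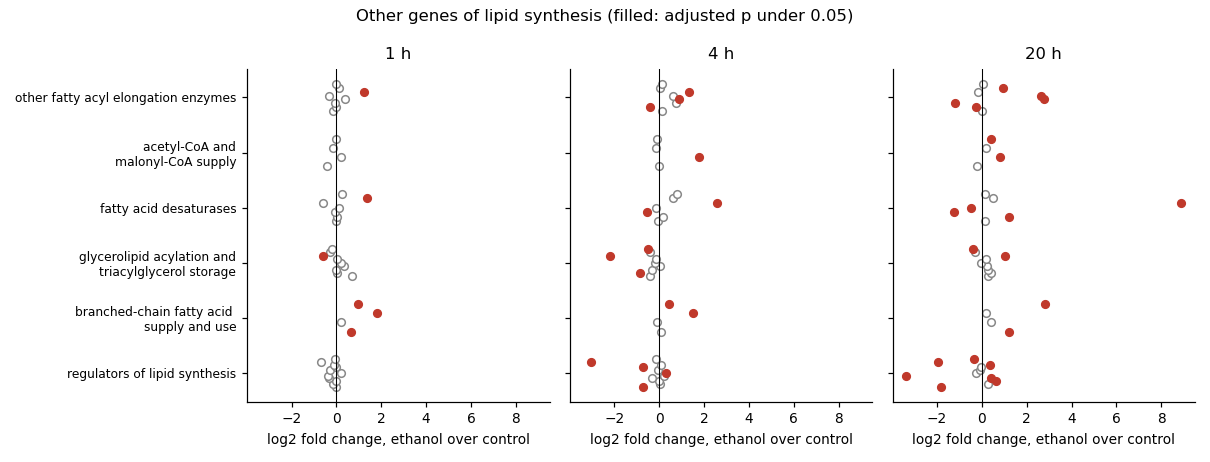
Log2 fold change in ethanol over the matched control at 1, 4 and 20 h for the tested genes of each of the 6 lists. Filled points mark adjusted p under 0.05. fat-5 at 20 h (8.90) lies above every other point, and sams-1 stands at -3.05 at 4 h.

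Among the risers at 1 h, sptl-2, a serine palmitoyltransferase subunit, averaged 25.5 ± 5.47 CPM in ethanol and 7.23 ± 1.94 CPM in controls (SD, n = 3 each; log2 fold change 1.80 ± 0.20, adjusted p = 3.88e-06). elo-9, of the elongase family, averaged 16.9 ± 5.00 CPM in ethanol and 7.15 ± 0.38 CPM in controls (1.24 ± 0.21, adjusted p = 0.000396). fat-6, a stearoyl-CoA desaturase, averaged 906 ± 193 CPM in ethanol and 353 ± 78.2 CPM in controls (1.36 ± 0.36, adjusted p = 0.0239), and the call was lost with no filter on low counts (0.0531) and when 1 library was left out, either ethanol replicate 1 (0.0875) or 3 (0.0927), or control replicate 2 (0.133) or 3 (0.0994). acs-22, of the fatty acid transport protein family, was the only gene of the 43 to fall at 1 h, with 68.5 ± 9.80 CPM in ethanol and 104 ± 3.14 CPM in controls (-0.60 ± 0.12, adjusted p = 0.00307). Fitted on these 6 libraries alone, acs-22 had an adjusted p of 0.122.

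At 4 h the largest rise was that of fat-5, a palmitoyl-CoA desaturase, at 97.4 ± 7.89 CPM in ethanol and 16.5 ± 2.10 CPM in controls (log2 fold change 2.56 ± 0.24, adjusted p = 7.07e-08). acs-19, of the acetyl-CoA synthetase family, stood at 554 ± 19.8 CPM in ethanol and 159.7 ± 28.9 CPM in controls (1.80 ± 0.32), and sptl-2 remained above its control (1.51 ± 0.21). On the other side, sams-1, an S-adenosylmethionine synthetase, stood at 6.32 ± 1.07 CPM in ethanol and 52.5 ± 9.57 CPM in controls (-3.05 ± 0.39). acs-22 stood at 52.3 ± 4.62 CPM in ethanol and 242 ± 3.90 CPM in controls (-2.21 ± 0.13, adjusted p = 5.96e-11). acl-2, an acyltransferase of phosphatidic acid synthesis, had a log2 fold change of -0.87 ± 0.21 (adjusted p = 0.00312).

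At 20 h fat-5 averaged 137 ± 24.0 CPM in ethanol and 0.278 ± 0.158 CPM in controls, where it had 2 to 6 counts per library (log2 fold change 8.90 ± 0.37). Its controls at 4 h had held 217 to 221 counts. sptl-3 averaged 403 ± 32.9 CPM in ethanol and 57.5 ± 9.82 CPM in controls (2.81 ± 0.16), and elo-8 averaged 3.99 ± 0.68 CPM in ethanol and 0.647 ± 0.380 CPM in controls (2.63 ± 0.32). Among genes averaging at least 5 CPM, the largest falls were those of sams-1 (-1.94 ± 0.38), of aak-2, a catalytic subunit of AMP-activated protein kinase (24.5 ± 4.49 CPM in ethanol, 86.1 ± 13.03 CPM in controls, -1.81 ± 0.26), and of fat-3, a desaturase of polyunsaturated fatty acid synthesis (704 ± 108 CPM in ethanol, 1689 ± 596 CPM in controls, -1.26 ± 0.20).

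The genes whose group means were most like those of the 9 were sought over the 7 groups, by Pearson r of mean log2 CPM among 5122 genes. C49C8.5 was closest to elo-5 (r = 0.99), C17C3.15 to elo-6 (0.98) and acl-4, an acyltransferase of glycerolipid synthesis, to elo-2 (0.99). mrp-8 was closest to dgat-2 (0.97), pmp-1 to elo-1 (0.98), C23H4.3 to sbp-1 (0.95) and fipr-2 to pod-2 (0.99). The closest to fasn-1 was act-5 (0.99), an actin of the intestinal brush border that is also in the intestinal marker list. elo-5 and elo-6 had r = 0.94 with each other. These correlations rest on 7 points and describe the shape of the profiles. mdt-15 varied too little over the groups for this search.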

How the data were processed

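The authors deposited whole-number counts of reads for each gene, with 1 column for each of 22 libraries. Trimming, alignment and counting were done with Trimmomatic 0.39 and fastp 0.23.2, then STAR 2.7.9a, then featureCounts and Subread 2.0.3, all named in the submitters' processing notes along with genome build ce10. Not given in the sources used here were the annotation, the strand setting and the treatment of multi-mapping reads, so counts of overlapping or antisense genes are uncertain. No coordinates are given, since exon lengths and overlaps came from WBcel235.

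Genes were filtered with filterByExpr (minimum count 10, minimum total 15), which left 15310. All 22 libraries entered a single edgeR 4.0.16 model (R 4.3.3), with a mean for each of the 7 groups, TMM scaling and robust, two-sided quasi-likelihood tests, and p-values were Benjamini-Hochberg adjusted over all these genes. CPM is the deposited count over the TMM-adjusted library size. Alternatives included limma 3.58.1 (voom), DESeq2 1.42.0, other size factors and filters, the compared groups alone, a replicate block, and libraries left out. The test was checked on simulated counts. The simulation gave every gene the same dispersion and held no common axis within groups, so it does not cover the spread seen here.

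The 9 genes and the lists were chosen with earlier results of these data known. Outside the 9, the named genes are the 3 largest rises and falls per time over the lists, among called genes with a mean of at least 5 CPM, and the genes of most similar profile. The labels call the libraries biological replicates without saying that cultures were separate, so the p-values cover only the spread among the libraries at hand, which may be technical. No group held identical libraries.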

Additional observations from a re-analysis of the deposited data

Results flagged for a closer look

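Of all tested genes, 40.7% passed edgeR's interaction test of the ethanol effect over 1, 4 and 20 h. By that test the ethanol effect differed between the times for 5 of the 9 genes. The adjusted p of that difference was 4.35e-07 for elo-2, whose log2 fold change was 1.42, -0.62 and 0.69 at 1, 4 and 20 h. It was 2.32e-05 for elo-5 (1.18, 3.84 and 3.28) and 0.000206 for dgat-2 (0.25, 0.86 and 2.22). It was 0.0079 for elo-6 (1.17, 1.82 and 2.46) and 0.00796 for elo-1 (0.24, -0.48 and 0.60). All 5 passed with each of the libraries left out in turn.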

How the results depend on the processing

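The number of the 9 genes called in a comparison stayed within 1.5 times under the alternatives, with 3 exceptions whose cause was not tested. With each group's most distant library on the axis removed, 7 genes passed for ethanol against control at 1 h and 5 for the 1 h control against time zero. Fitted on the compared groups alone, 3 passed at 20 h. With single libraries left out, the count was 2 to 3, 4 to 5 and 4 to 7 for ethanol against control at 1, 4 and 20 h. Against time zero it was 2 to 3, 4 to 6 and 4 to 7 in ethanol, and 3, 6 and 6 to 7 in controls. Removing the 6 libraries that scored under -10 was added after the data had been seen, and the count was then 3, 7 and 7 for ethanol against control, and 4, 7 and 7 in ethanol and 4, 8 and 9 in controls against time zero. Of the 3 same-numbered pairs of ethanol and control, 2, 0 and 1 had deviations with a correlation over 0.1 at 1, 4 and 20 h, and 4, 0 and 1 of the 6 libraries were closest to their own number. The 1 h correlations were 0.60, 0.62 and -0.069 for replicates 1, 2 and 3. Over all groups 16 of 63 pairs exceeded 0.1, including all 3 pairs of ethanol at 1 and 4 h, and the correlations ran from -0.653 to 0.621. The labels do not say that libraries are paired by number, so the main model left the numbers out. Whether same-numbered libraries at 1 h share an origin was not tested. With the replicate block 3, 5 and 5 genes passed for ethanol against control, and sbp-1 at 20 h had an adjusted p of 0.0551. Of the 43 listed genes, 20 passed at 1 h with the most distant libraries removed and 24 at 4 h with the compared groups alone. The share of all tested genes called under each alternative is not given here. These counts therefore describe only how the calls moved, and are not a result about the genes themselves.

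Every change of sign was in a value that had not passed in the main model. The changed value itself passed only for fasn-1 in ethanol against control at 1 h, given next (edgeR adjusted p = 0.0151). With the most distant libraries removed, ethanol against control at 1 h was -0.88 for fasn-1 and -0.41 for pod-2, the 1 h control against time zero was 0.43 for fasn-1, 0.15 for pod-2 and 0.060 for sbp-1, and ethanol at 4 h against time zero was 0.21 for mdt-15 and 0.059 for pod-2. Without the libraries under -10 the last 2 were 0.22 and 0.074. With library sizes alone, mdt-15 was 0.069 and 0.14 in ethanol at 4 and 20 h against time zero and sbp-1 was 0.043 in the 20 h control. With voom, mdt-15 was 0.0060 in ethanol at 4 h against time zero, and with the block it was -0.023 in the 4 h control. With single libraries left out, fasn-1 ranged from -0.47 to 0.55 and -1.42 to 0.069 for ethanol against control at 1 and 20 h, and from -0.73 to 0.067 in ethanol and -0.77 to 0.11 in controls at 1 h against time zero. Likewise mdt-15 ranged from -0.60 to 0.18, -0.26 to 0.26 and -0.47 to 0.23 in ethanol at 1, 4 and 20 h and from -0.054 to 0.46 in the 4 h control against time zero. pod-2 ranged from -0.084 to 0.57 and -0.011 to 0.31 for ethanol against control at 1 and 4 h and from -0.40 to 0.070 in ethanol at 1 h against time zero, sbp-1 from -0.62 to 0.18 in the 20 h control against time zero, and the log2 elo-5 to elo-6 ratio difference at 1 h from -0.031 to 0.075.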
